A study of Rattus norvegicus with 4 samples.

Results

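Interferon-stimulated and antigen processing genes were followed in cultured neonatal rat cardiomyocytes that carried an adenovirus vector for Pdk3, pyruvate dehydrogenase kinase 3, or a mock vector. The list holds 44 genes chosen by symbol, 36 antiviral genes and 8 antigen processing genes, among 16290 genes in the deposited table. A row was matched for 43 of them, all 43 passed the filter on low values (10 or more in 2 or more of the libraries), and the peptide transporter subunit gene Tap2 was not analysed here. The test covered 12838 genes in all. The cells were taken from rats at postnatal day 3 and grown in medium with horse serum. The Mock group received a control adenovirus vector and the Pdk3 group an adenovirus vector encoding Pdk3, so both groups carried a vector, and cells without one were not analysed here. Each group had n = 2 libraries of stranded mRNA sequencing. The labels name neither the animal strain, the time after vector delivery nor whether the libraries of a group came from separate cultures, and p-values here therefore capture the spread of these libraries alone, possibly a technical one.

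Interferons are secreted proteins that warn cells of viruses. A cell senses foreign RNA or DNA, releases interferon, and interferon bound to its receptor acts through JAK kinases on transcription factors that bind the interferon-stimulated response element in the promoters of antiviral genes. Interferon gamma acts at gamma-activated sites and through IRF1, and raises the genes that cut proteins into peptides and load them on MHC class I molecules for display to T cells. Adenovirus, the carrier used in both groups here, is a DNA virus.

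With Pdk3, 39 of the 43 tested members did not pass the threshold. The groups overlapped for 25 of the 43, and for 5001 of the 12838 genes tested. By limma with Benjamini-Hochberg adjustment over all genes tested, 2 of the 43 members rose (Psmb9 and Bst2) and 2 fell (Trim25 and Parp14), while 11.7% of all genes tested rose and 11.3% fell. The members' share was 4.65% in each direction, under that background. Of the 3556 genes tested with a mean of 10 to 100, a range that holds many members, 6.33% rose and 6.10% fell. The differences between these shares were not tested. With any 1 of the 4 libraries left out, limma called 0 genes, members included, although 2 to 5 members were higher and 2 to 6 lower at an unadjusted p under 0.05. A second pattern lay inside the Mock group: 6 of 43 members, or 14.0%, were more than 2 counting SD apart between Mock 1 and Mock 2, where 1.36% of all genes tested were.

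The promoters of the genes that passed the test are shown first, because the interferon-stimulated response element is the sequence feature that interferon-stimulated genes are known for. Windows of 250 bases before to 50 bases after the annotated start came from RefSeq (build GRCr8, not the build rn6 of the deposited table) and were matched for 36 of the 44 members. The core searched was GAAANNGAAA, that is 2 copies of GAAA with 2 free bases between, on both strands, and overlapping matches were counted. It was present in 22 of 36 members, or 61.1%, and in 4.12% of the 27457 genes with windows of the same kind. Among antiviral members 16 of 29 matched genes held it (55.2%), and among antigen processing members 6 of 7 (85.7%). The core of the gamma-activated site, TTCNNNGAA, which reads the same on both strands, was present in 8 of 36 members (22.2%) against 9.39% of all genes. The members were picked for the known biology of these genes, so the high share describes the list. A match is a description of letters and shows no binding.

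Capitals mark the core in the sequences that follow, printed 5′ to 3′ in the direction of the gene. Of the 4 genes past the threshold, Bst2 (chr16:18254918-18255217, minus strand) held 2 overlapping cores that begin 131 and 125 bases before the start, and Parp14 (chr11:78407884-78408183, plus strand) held 1 that begins 76 bases before it. In Psmb9 (chr20:4668750-4669049, plus strand) and Trim25 (chr10:74309774-74310073, plus strand) these letters are not in the window. The window of Tap1 (chr20:4668494-4668793, minus strand) overlaps that of Psmb9. It held 1 core, 121 bases before the start of Tap1 and outside the window of Psmb9. Rsad2 (chr6:48788071-48788370, minus strand) and Oas1a (chr12:41330216-41330515, plus strand) are added because their Mock libraries lay farthest apart, a choice made after their values were seen. Rsad2 held 1 core on the opposite strand, 147 bases before the start, and Oas1a 2 overlapping cores, 41 and 35 bases before it.
Bst2: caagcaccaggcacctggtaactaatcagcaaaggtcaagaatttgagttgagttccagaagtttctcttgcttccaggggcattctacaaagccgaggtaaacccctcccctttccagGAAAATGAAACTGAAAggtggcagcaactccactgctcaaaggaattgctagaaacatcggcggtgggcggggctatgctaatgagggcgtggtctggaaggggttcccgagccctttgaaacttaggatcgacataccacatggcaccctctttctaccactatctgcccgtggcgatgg
Parp14: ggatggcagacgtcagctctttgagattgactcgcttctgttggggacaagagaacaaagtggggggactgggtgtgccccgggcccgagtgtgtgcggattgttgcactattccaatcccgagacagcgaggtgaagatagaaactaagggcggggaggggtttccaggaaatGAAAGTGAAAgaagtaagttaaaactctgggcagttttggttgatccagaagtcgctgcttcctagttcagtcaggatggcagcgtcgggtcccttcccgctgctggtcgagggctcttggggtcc
Psmb9: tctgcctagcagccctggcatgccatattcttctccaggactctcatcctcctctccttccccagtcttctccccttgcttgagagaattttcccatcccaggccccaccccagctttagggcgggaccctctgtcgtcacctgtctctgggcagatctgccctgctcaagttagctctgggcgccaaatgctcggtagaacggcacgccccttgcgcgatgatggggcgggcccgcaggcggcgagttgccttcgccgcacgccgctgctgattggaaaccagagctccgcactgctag
Trim25: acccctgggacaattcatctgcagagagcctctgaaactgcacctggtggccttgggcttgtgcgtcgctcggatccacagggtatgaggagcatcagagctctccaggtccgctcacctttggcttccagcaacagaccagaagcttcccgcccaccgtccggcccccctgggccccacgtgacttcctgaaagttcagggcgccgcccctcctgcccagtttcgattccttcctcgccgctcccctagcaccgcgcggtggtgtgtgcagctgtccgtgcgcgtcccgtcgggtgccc
Rsad2: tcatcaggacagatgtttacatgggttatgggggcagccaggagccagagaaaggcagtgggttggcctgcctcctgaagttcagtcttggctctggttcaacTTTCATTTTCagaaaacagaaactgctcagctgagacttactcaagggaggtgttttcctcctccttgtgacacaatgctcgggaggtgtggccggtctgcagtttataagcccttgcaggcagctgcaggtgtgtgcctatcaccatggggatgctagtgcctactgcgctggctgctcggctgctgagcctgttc
Oas1a: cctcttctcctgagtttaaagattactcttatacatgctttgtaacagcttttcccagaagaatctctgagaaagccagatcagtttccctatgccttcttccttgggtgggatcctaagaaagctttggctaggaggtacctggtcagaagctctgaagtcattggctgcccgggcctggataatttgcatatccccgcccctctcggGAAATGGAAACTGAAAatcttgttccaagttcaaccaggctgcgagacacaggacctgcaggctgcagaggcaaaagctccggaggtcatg

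Genes with and without the core were called at similar counts among the members. Of the tested members with a window, 21 held the core, of which 1 rose and 1 fell, and 14 did not, of which 1 rose and 1 fell. The median log2 fold change was near 0 (-1.1e-05) over the former and -0.16 over the latter. Among all 290 tested genes whose window held the core, 20 rose and 37 fell (6.9% and 12.8%), with a median of -0.04. Among the 9259 without it, 1140 rose and 1080 fell (12.3% and 11.7%), with a median of -0.0037.

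All values below are normalised read counts per gene as the authors deposited them, and log2 fold changes compare Pdk3 with Mock on the log2(value + 1) scale with the standard error from limma. The summed values per library lay between 4448199 and 4476649, and the scaling steps in the values gave about 4139110 to 4707141 reads in genes. Pdk3 itself read 396 and 411 in Mock and 1218 and 1177 in Pdk3, in the labelled direction, with vector and endogenous transcripts not separated. The libraries of a group lay closer together than counting reads alone would place them: over 10583 genes with a mean of at least 50, the mean squared gap in units of the counting variance was 0.553 for the Mock pair and 0.547 for the Pdk3 pair, where counting noise alone gives 1. Both libraries of each group were kept apart as the labels list them. Over the members the mean squared gap was 2.19 for the Mock pair and 0.794 for the Pdk3 pair. These values do not show whether the libraries of either group are separate samples. Over the genes with a mean of at least 50, limma's p thus rests on a spread under counting noise. A second adjusted p was therefore computed (the counting floor). In it no gene's p may be smaller than the exact binomial p of its summed reads. By that measure 8.38% of all genes rose and 7.44% fell, and of the members Psmb9 rose and Trim25 and Parp14 fell.

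**Figure D1:**
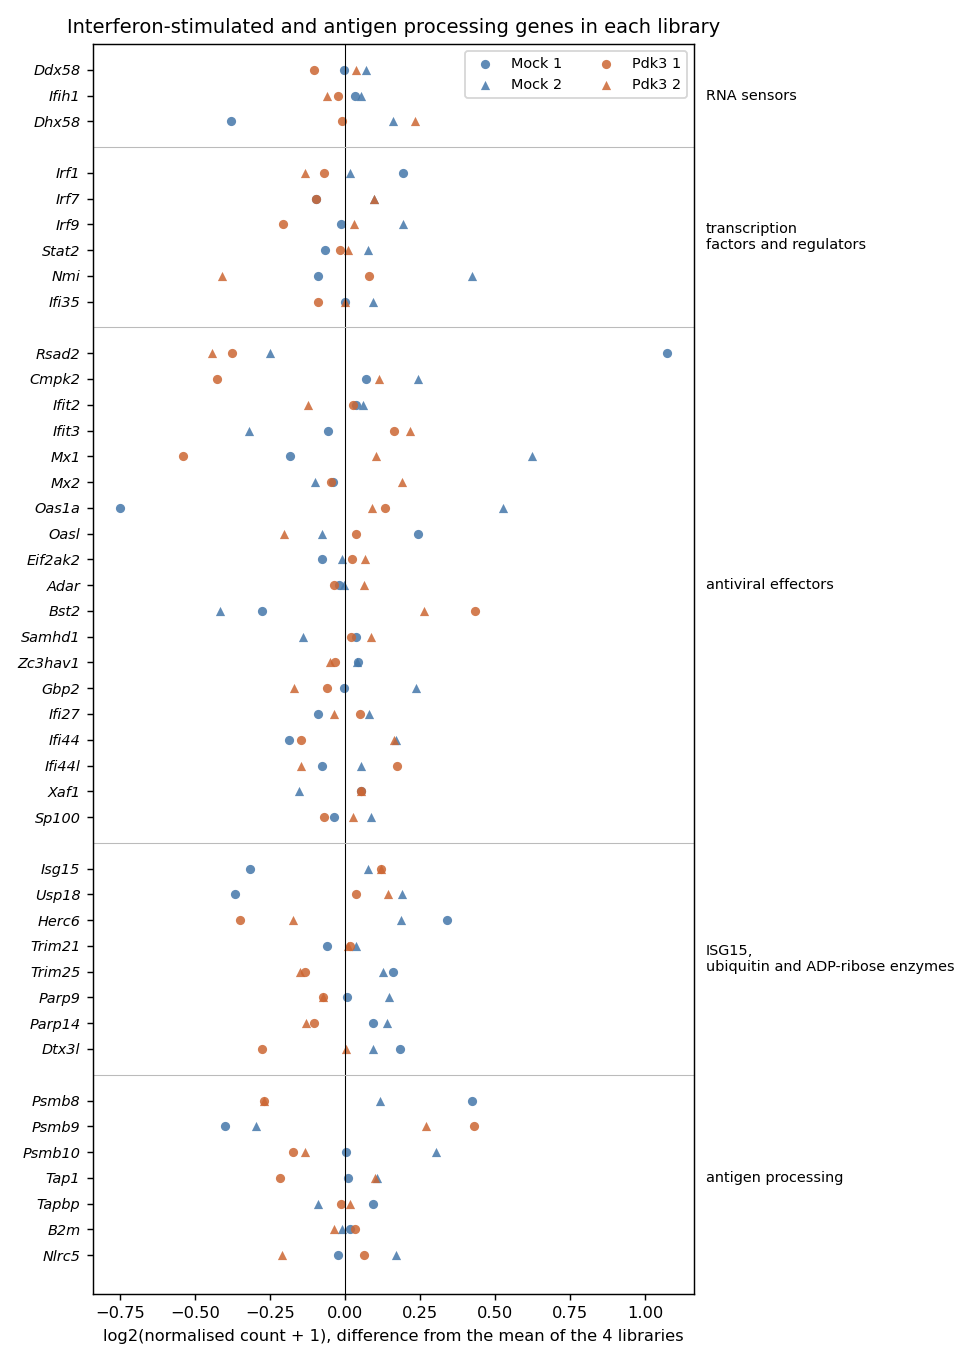
Normalised counts of the 43 members in each of the 4 libraries on the log2(value + 1) scale, as the difference from the gene's mean over the libraries, grouped by role; blue points are Mock, orange points Pdk3, circles the libraries numbered 1 and triangles those numbered 2. The groups overlap for 25 genes, and Rsad2 and Oas1a show the farthest apart Mock libraries.

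Sensors come first in the pathway. Ddx58 encodes RIG-I, which recognises RNA ends that cells normally cap, and read 191 and 201 in Mock and 178 and 196 in Pdk3. Ifih1 encodes MDA5, a sensor of long double-stranded RNA, and read 329 and 333 against 316 and 308. Dhx58 encodes LGP2, a relative of both, and read 67 and 98 in Mock against 87 and 103 in Pdk3. None of the 3 passed limma's test (adjusted p = 0.54, 0.214 and 0.425), and 0 had an unadjusted p under 0.05. Ifih1 was lower in both Pdk3 libraries than in either Mock library, while the groups overlapped for the other 2, and Dhx58 moved more between Mock 1 and Mock 2 than between the groups.

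None of the 6 transcription factors and regulators passed limma's test (1 was lower, Irf1, at an unadjusted p under 0.05), and their median log2 fold change was -0.13, beside -0.01 over all genes tested. Irf1, a factor induced by interferon gamma, read 251 and 222 in Mock and 209 and 200 in Pdk3, with no overlap of the groups (log2 fold change -0.21 ± 0.07, adjusted p = 0.083). Irf7, the factor that amplifies interferon production, had the same values in both groups, 168 and 192. Irf9 and Stat2, which encode factors that act at the response element, read 193 and 223 against 169 and 199, and 537 and 594 against 556 and 566, and both overlapped. Nmi and Ifi35 encode partner proteins that interact with each other. Nmi read 39 and 56 in Mock and 44 and 31 in Pdk3, and Ifi35 read 131 and 140 against 123 and 131.

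Of the 19 antiviral effectors, 1 rose and 0 fell by limma (2 and 2 at an unadjusted p under 0.05), with a median log2 fold change of 0.02. The one that rose was Bst2 (chr16:19938784-19942353 in rn6), which encodes tetherin, a membrane protein that holds budding virus particles on the cell. It read 21 and 19 in Mock and 35 and 31 in Pdk3, means of 20.0 ± 1.4 and 33.0 ± 2.8 (SD, n = 2). Both Pdk3 libraries lay above both Mock libraries, 1.65-fold on the means, with a log2 fold change of 0.69 ± 0.20 and an adjusted p of 0.0411. With the counting floor the adjusted p was 0.0758 and the call ended, as it did without a filter on low values. It was called in 5 of the 13 alternatives in which it was tested.

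The other 18 effectors did not pass. Eif2ak2 encodes PKR, the kinase that stops translation on double-stranded RNA, and read 696 and 728 in Mock against 745 and 768 in Pdk3 (log2 fold change 0.09 ± 0.03, adjusted p = 0.106). Both Pdk3 libraries were above both Mock libraries, as they also were for Ifit3, a member of a family that binds viral RNA, at 23 and 19 against 27 and 28 (0.38 ± 0.21, adjusted p = 0.23). Its neighbour Ifit2 lay below Mock instead, at 122 and 124 against 121 and 109 (-0.10, adjusted p = 0.48). Zc3hav1, which encodes the zinc finger antiviral protein, read 465 and 464 against 441 and 435, and Gbp2, a guanylate-binding GTPase, read 172 and 203 against 165 and 153 (-0.23 ± 0.09, adjusted p = 0.116). For both of these the Pdk3 libraries lay below the Mock libraries, without passing the test.

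Among the rest, Rsad2 and Oas1a are described with the spread between libraries, and the groups overlapped for the others. Adar, the RNA-editing enzyme, read 729 and 739 against 721 and 773. Samhd1, which breaks down deoxynucleotides, read 85 and 75 against 84 and 88. Mx1 and Mx2 encode GTPases that block incoming viruses. Mx1 read 31 and 55 in Mock and 24 and 38 in Pdk3. Mx2 read 224 and 215 against 223 and 263. Oasl, a relative of the oligoadenylate synthetases, read 44 and 35 against 38 and 32. Cmpk2, a mitochondrial nucleotide kinase whose gene lies beside Rsad2, read 30 and 34 against 21 and 31. The Ifi genes are named for their induction. Ifi27 read 303 and 341 against 334 and 315. Ifi44 read 138 and 177 against 142 and 176, and Ifi44l 20 and 22 against 24 and 19. Xaf1, a gene linked to cell death, sat near the filter at 14 and 12 against 14 and 14. Sp100, a nuclear body protein, read 89 and 97 against 87 and 93. The log2 fold changes of these 11 genes ran from -0.44 for Mx1 to 0.14 for Mx2, and the adjusted p from 0.262 to 0.95.

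ISG15 is a ubiquitin-like protein that is attached to other proteins, and the enzymes around it and around ADP-ribose gave the 2 members that fell. Their class of 8 had a median log2 fold change of -0.19. Trim25 (chr10:76343847-76362145 in rn6), a ubiquitin ligase known for its role in RIG-I signalling, read 345 and 337 in Mock and 281 and 278 in Pdk3, means of 341.0 ± 5.7 and 279.5 ± 2.1 (SD, n = 2). The groups lay far apart compared with either pair, 1.22-fold lower with Pdk3 (log2 fold change -0.29 ± 0.05, adjusted p = 0.0043, and 0.00702 with the counting floor).

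Parp14 (chr11:68105369-68137535 in rn6), an ADP-ribosyltransferase, read 396 and 409 in Mock and 345 and 339 in Pdk3, means of 402.5 ± 9.2 and 342.0 ± 4.2 (SD, n = 2). It fell 1.18-fold, with a log2 fold change of -0.23 ± 0.04, an adjusted p of 0.00713 and one of 0.0165 with the counting floor. Without an intensity trend in the variance it was not called, while Trim25 was. Parp9 and Dtx3l encode partners that act as one ADP-ribosylating ubiquitin ligase. Parp9 read 458 and 505 in Mock and 433 in both Pdk3 libraries (-0.15 ± 0.05, adjusted p = 0.0694). Dtx3l read 160 and 150 against 116 and 141 (-0.27 ± 0.11, adjusted p = 0.105). Herc6, a ubiquitin ligase, read 49 and 44 against 30 and 34 (-0.53 ± 0.17, adjusted p = 0.0573). These 3 lay below the Mock libraries in both Pdk3 libraries and did not pass the test. Isg15 itself read 47 and 62 in Mock and 64 in both Pdk3 libraries. Usp18, the protease that removes ISG15, read 127 and 187 against 168 and 181. Trim21, an antibody receptor inside the cell, read 433 and 463 against 456 and 454. Those 3 had positive log2 fold changes of 0.24, 0.18 and 0.02 with adjusted p from 0.321 to 0.74.

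Of the 7 antigen processing genes tested, 1 rose and 0 fell by limma (1 and 0 at an unadjusted p under 0.05), and 6 of the 7 had negative values, with a median of -0.12. Psmb9 (chr20:3973420-3978845 in rn6) encodes a catalytic subunit of the immunoproteasome, the form of the proteasome that interferon gamma favours for making peptides. It read 26 and 28 in Mock and 47 and 42 in Pdk3, means of 27.0 ± 1.4 and 44.5 ± 3.5 (SD, n = 2). It rose 1.65-fold, by 0.70 ± 0.17 on the log2 scale (adjusted p = 0.0235, and 0.0436 with the counting floor). Without a filter on low values, it was not called.

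The other catalytic subunits of the immunoproteasome had negative values and did not pass. Psmb8 read 20 and 16 in Mock and 12 in both Pdk3 libraries (-0.54 ± 0.26, adjusted p = 0.174). Psmb10 read 77 and 95 against 68 and 70 (-0.31 ± 0.13, adjusted p = 0.138). Both were below Mock in both Pdk3 libraries, though the difference between Psmb9 and these 2 genes was not tested. Tap1, the peptide transporter subunit, lies between Psmb9 and Psmb8 in the genome and read 143 and 153 against 122 and 152. Tapbp, which encodes tapasin, read 266 and 234 against 247 and 252. B2m, the light chain of MHC class I, read 748 and 733 against 756 and 720, a log2 fold change of -0.01 ± 0.03. Nlrc5, the activator of MHC class I genes, read 48 and 55 against 51 and 42. These 4 overlapped between the groups, with adjusted p of 0.49 or more.

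**Figure D2:**
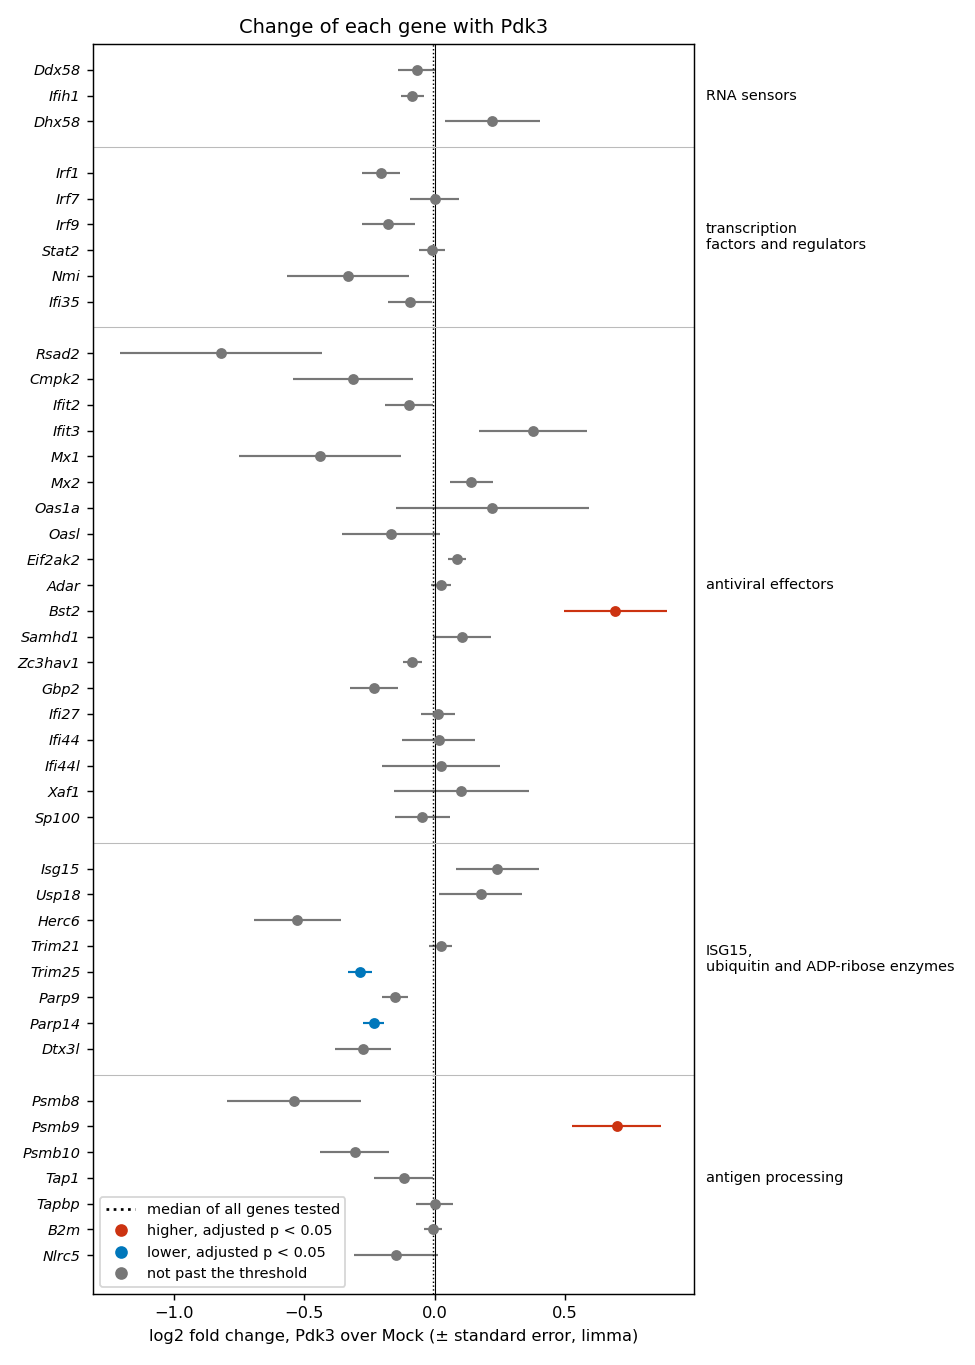
Log2 fold change of each of the 43 members, Pdk3 over Mock, with the standard error from limma; red marks the 2 genes that rose, blue the 2 that fell and grey those that did not pass, and the dotted line is the median of all genes tested. Psmb9 and Bst2 lie at the right, at 0.70 and 0.69, and Rsad2, not called, lies farthest to the left at -0.82 with a standard error of 0.39.

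Antiviral and antigen processing genes, set side by side, gave few calls each. Of 36 antiviral genes 1 rose and 2 fell (0 and 2 with the counting floor), with a median log2 fold change of -0.06, and of 7 antigen processing genes 1 rose and 0 fell (1 and 0), with a median of -0.12. Over all genes tested the median was -0.01. The values summed over the antiviral genes were 7204 and 7643 in Mock and 7044 and 7269 in Pdk3, which overlap. Summed over the antigen processing genes they were 1328 and 1314 against 1303 and 1290, close together and lower with Pdk3 in both libraries. B2m alone, at 748 and 733 against 756 and 720, made up most of each sum. The differences between the sums were not tested. Pdk3 lay above Mock without overlap for 4 antiviral and 1 antigen processing genes, and below it for 11 and 2. Over the 43 members that makes 5 above and 13 below, 11.6% and 30.2%, beside 29.9% and 31.1% of all genes tested. The share above is smaller than that of the genes tested and the share below close to it. Over the genes tested with a mean of 10 to 100, the shares were 21.5% above and 28.3% below. The difference between the 2 classes was not tested. When libraries were scaled to level 67 ribosomal protein genes, the median of all genes moved to -0.09 and 7.3% of all genes were called higher and 28% lower (937 against 3594). Of the members 2 were then higher and 12 lower, among them Irf1, Irf9, Gbp2, Herc6, Parp9, Dtx3l and Psmb10.

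The spread between Mock 1 and Mock 2 was wide at several antiviral genes. Over the members the median gap between the Mock libraries was 0.17 on the log2 scale, against 0.07 over all genes tested. Between the Pdk3 libraries it was 0.10 for the members and 0.07 for all genes. The change with Pdk3 exceeded the gap inside Mock for 19 of 43 members (44.2%), and for 66.2% of all genes tested. Among genes tested with a mean of 10 to 100 it did so for 57.8%. The members' mean squared gap in units of the counting variance was 2.19 in Mock and 0.794 in Pdk3. A limit of 2 counting SD, where a counting SD is the spread of the difference that counting reads alone gives, was set with these values known. Past it lay 6 members in the Mock pair, all antiviral, and 0 in the Pdk3 pair, where 1.32% of all genes tested were. Of the 3556 genes tested with a mean of 10 to 100, where counting is noisier, 2.64% passed it in the Mock pair.

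The 6 genes did not move one way. Rsad2 (chr6:45655954-45669148 in rn6), which encodes viperin, an enzyme that makes a chain-terminating nucleotide, read 59 in Mock 1 and 23 in Mock 2, and 21 and 20 in Pdk3. Mock 1 stood alone above the other 3 libraries (4.12 counting SD above Mock 2). Oas1a (chr12:41200718-41211909 in rn6), an oligoadenylate synthetase that switches on an RNA-cutting enzyme, read 18 in Mock 1 and 45 in Mock 2, a gap of 3.60 counting SD in the other direction. In Pdk3 it read 34 and 33, between the Mock libraries. Usp18 (127 and 187), Mx1 (31 and 55), Dhx58 (67 and 98) and Ifi44 (138 and 177) were also higher in Mock 2, by 3.49, 2.61, 2.47 and 2.21 counting SD. Mock 2 was above Mock 1 for 28 of 43 members and below it for 15. Pdk3 2 was above Pdk3 1 for 21 and below it for 18. Over the 12838 genes tested, Mock 2 was above for 6265 and Pdk3 2 for 6194. The differences between these shares were not tested. Copies of near-identical genes in the Oas1 and Mx families can share reads, and their counts are uncertain.

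**Figure D3:**
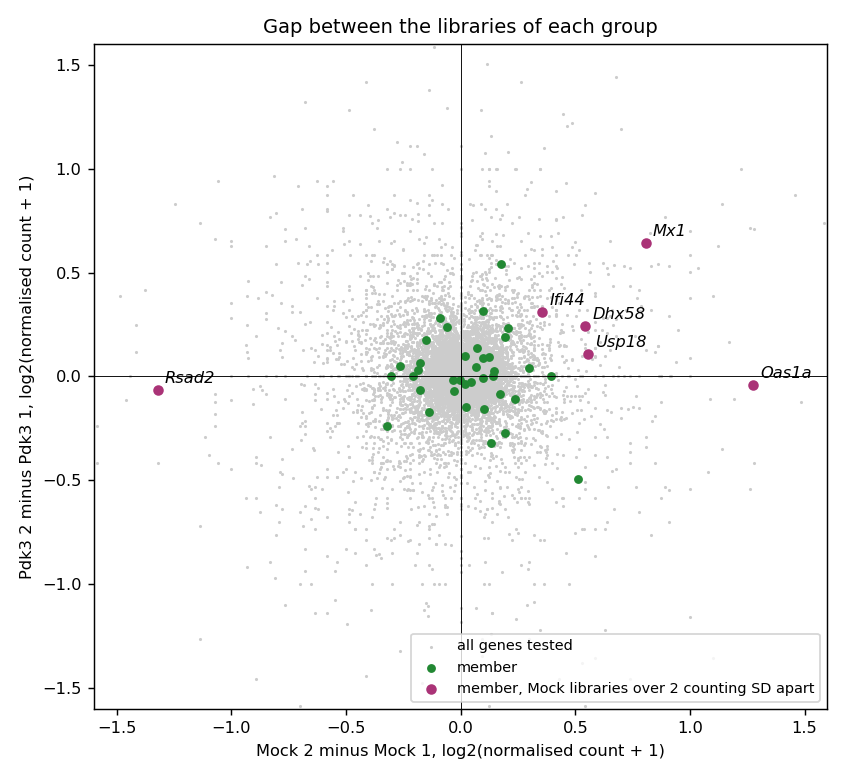
Gap between the libraries of a group on the log2(value + 1) scale, Mock 2 minus Mock 1 across and Pdk3 2 minus Pdk3 1 up, for all genes tested (grey), the members (green) and the 6 members over 2 counting SD apart in Mock (purple); 18 genes lie outside the axes. Rsad2 sits far left and Oas1a far right, while both stay near 0 on the vertical axis.

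These genes were picked for the gap inside Mock, so their log2 fold change had to depend on which Mock library was used. That of Rsad2, -0.82 ± 0.39 (adjusted p = 0.17), was -0.16 without Mock 1 and -1.48 without Mock 2. For Oas1a it was 0.22 ± 0.37 (adjusted p = 0.704), -0.42 without Mock 1 and 0.86 without Mock 2. For Usp18 the value 0.18 turned to -0.10 without Mock 1 and was 0.45 without Mock 2. The direction of Oas1a, Usp18, Dhx58 and Ifi44 thus turned with 1 Mock library left out. None of the 4 had an adjusted p past the threshold in these fits.

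**Figure D4:**
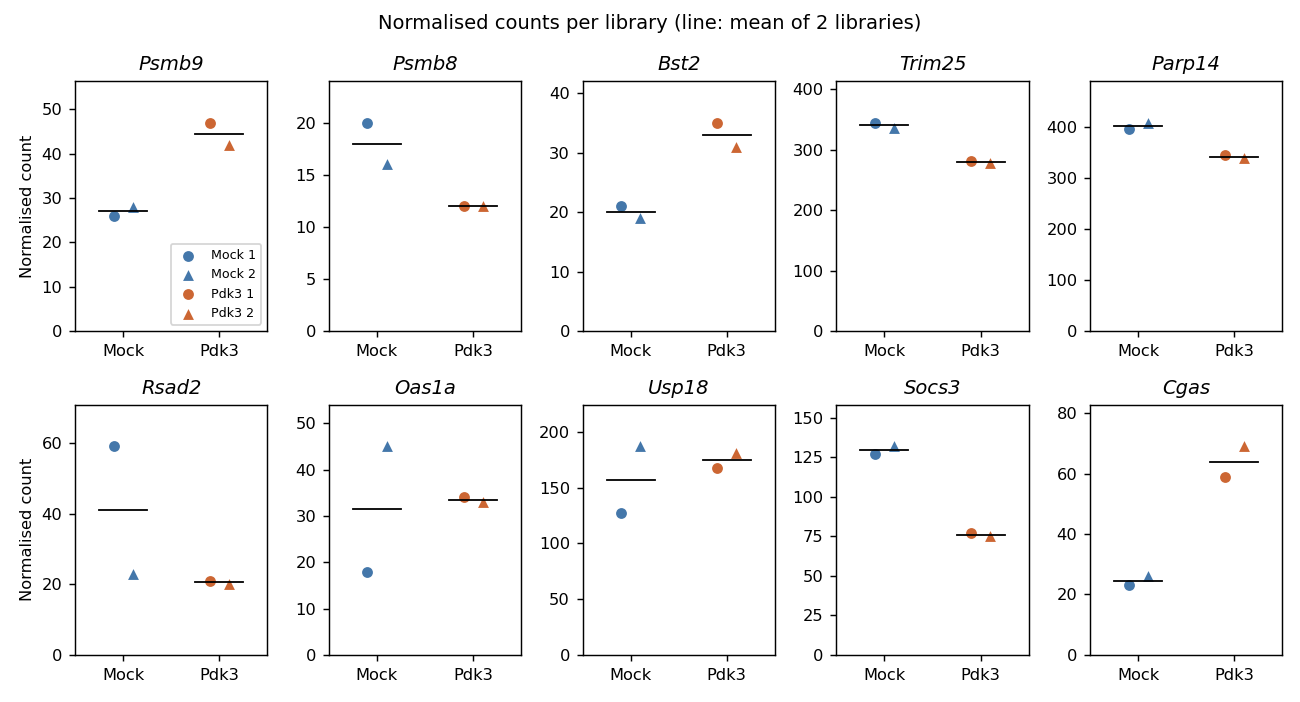
Normalised counts per library for 8 members and for Socs3 and Cgas, each panel with its own axis from 0, blue for Mock, orange for Pdk3, and a line at the mean of 2 libraries. Psmb9 and Bst2 are separated upward and Trim25 and Parp14 downward with tight pairs, while the Mock libraries of Rsad2, Oas1a and Usp18 lie apart.

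Several members are neighbours in the genome (rn6), and neighbours did not always share a direction. Tap1 begins 189 bases from Psmb9 on the opposite strand, and Psmb8 lies 943 bases beyond Tap1. Their log2 fold changes were 0.70 for Psmb9, -0.12 for Tap1 and -0.54 for Psmb8. Parp9 and Dtx3l, 1128 bases apart on opposite strands, had -0.15 and -0.27. Rsad2 and Cmpk2, 14085 bases apart, had -0.82 and -0.31, and Cmpk2 (30 and 34 in Mock) did not share the high value of Rsad2 in Mock 1. Ifit2 and Ifit3 had -0.10 and 0.38 and Mx1 and Mx2 had -0.44 and 0.14. The strand setting of the counting was not stated, so reads of overlapping genes on opposite strands may not be told apart.

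Upstream of the members stand the interferon receptors and the kinases and STATs they act through. Of 16 tested receptor and JAK-STAT genes, 8 fell and 1 rose (6 and 1 with the counting floor), with a median of -0.07. These shares were 50% lower and 6.25% higher, beside 11.3% and 11.7% of all genes tested, a difference that was not tested. Socs3, the feedback inhibitor that JAK-STAT signalling induces, read 127 and 132 in Mock and 77 and 75 in Pdk3 (log2 fold change -0.76 ± 0.09, adjusted p = 0.00135). Jak2 read 801 and 830 against 669 and 715. Stat3 read 1814 and 1818 against 1687 and 1685, and Ifnar1, a chain of the receptor for type I interferon, 708 and 739 against 643 and 621. All 3 fell, by 0.24, 0.11 and 0.19 on the log2 scale (adjusted p = 0.00482, 0.00566 and 0.00721). The gene that rose was Ptpn11, the phosphatase SHP2, at 1674 and 1718 against 1909 and 1890 (0.16, adjusted p = 0.00161). Of the 12 interferon genes listed, no row was matched, and they were not analysed here.

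Among 18 tested genes of nucleic acid sensing, 1 rose and 3 fell (1 and 2 with the counting floor), with a median of -0.10. These shares were 5.56% higher and 16.7% lower, beside 11.7% and 11.3% of all genes tested. Cgas, the DNA sensor that makes a cyclic dinucleotide, rose 2.61-fold from 23 and 26 to 59 and 69 (1.35 ± 0.17, adjusted p = 0.00149). Tmem173 encodes STING, the receptor of that dinucleotide, and fell from 48 and 44 to 32 and 30 (-0.55, adjusted p = 0.0445, and 0.11 with the counting floor, where the call ended). Myd88, the adaptor of Toll-like receptors, fell from 247 and 234 to 185 and 182 (-0.39, adjusted p = 0.00397), and Nlrx1 by 0.25 (adjusted p = 0.0226).

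Other interferon-stimulated genes, a list apart from the members, had 2 of 53 higher and 10 lower (1 and 7 with the counting floor), with a median of -0.08. These shares were 3.77% higher and 18.9% lower, beside 11.7% and 11.3% of all genes tested. Of this list 49.1% lay below Mock without overlap and 13.2% above, beside 31.1% and 29.9% of all genes tested. The differences between these shares were not tested. Slfn13, of the Schlafen family, read 201 and 211 in Mock and 321 and 305 in Pdk3 (0.60, adjusted p = 0.000384), and Pnpt1 rose by 0.14 (adjusted p = 0.045, and 0.16 with the counting floor, where the call ended). Cxcl11, a chemokine induced by interferon gamma, fell from 51 and 50 to 21 and 14 (-1.50, adjusted p = 0.00336). Znfx1, an RNA helicase, fell from 533 and 506 to 367 and 402 (-0.43, adjusted p = 0.00129). Trim34 and Parp10 also fell, by 0.43 and 0.35.

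Antigen processing needs further genes that are not members. Of 23 tested MHC class I and other processing genes, 1 rose (Canx, the chaperone calnexin, 0.08) and 2 fell (Tapbpl, -0.24, and Cd1d1, -0.22), and 0 passed in either direction with the counting floor. Their median was -0.16, with 17 of 23 negative, and 10 lay below Mock without overlap (43.5%). Over all genes tested, 6628 of 12838 were negative, 31.1% lay below Mock without overlap, 11.7% rose and 11.3% fell. The difference between these shares was not tested. Of 13 constitutive proteasome core genes, 0 passed limma's test (1 higher at an unadjusted p under 0.05), with a median of 0.04. These include the catalytic subunits that the immunoproteasome subunits replace: Psmb6, the counterpart of Psmb9, read 188 and 182 against 178 and 199. Psmb5, the counterpart of Psmb8, read 231 and 239 against 238 and 246. Of 4 tested MHC class II genes, Cd74 and Ctss among them, 0 passed, and 0 had an unadjusted p under 0.05.

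Cells other than cardiomyocytes can carry these genes, and markers of some of them moved with Pdk3. The cultures were rich in cardiomyocyte transcripts, whose 10 markers summed to 24459 to 25568 per library, with 5 higher and 1 lower (3 and 1 with the counting floor). The 15 tested macrophage and leukocyte markers were all negative, with 7 lower and 0 higher by limma (6 and 0 with the counting floor, 11 and 0 at an unadjusted p under 0.05), a median of -0.35 and sums of 2469 and 2284 in Mock against 1973 and 1900 in Pdk3. Csf1r and Cd68 were among the 7. The 7 endothelial markers summed to 1036 and 1108 against 999 and 972, with 2 lower (Cdh5 and Tie1). The list was mixed, with 6 negative values and 1 positive. The positive one, Kdr, had the highest values of the list, 467 and 502 in Mock and 536 and 527 in Pdk3. Its groups did not overlap, and it did not pass limma's test (0.13, adjusted p = 0.0611). Smooth muscle and pericyte markers had 4 of 6 higher, and fibroblast and mesothelial lists 1 lower each. Beside these marker counts, 11.7% of all genes tested rose and 11.3% fell. Of T and NK cell markers, Cd3g and Prf1 were at 0 in all 4 libraries, and Cd4, which macrophages of rats also carry, fell (-0.35, adjusted p = 0.0489, and 0.126 with the counting floor, where the call ended). Cd8a, the other tested marker of that list, went the other way without passing limma's test. It read 17 and 18 in Mock and 24 and 26 in Pdk3, without overlap (0.49, adjusted p = 0.137). In bulk libraries fewer cells of a type and less RNA per cell cannot be told apart, and the part of these cells in the values of the members was not tested.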

How the data were processed

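Values came from 1 deposited table with a column for each of the 4 libraries. They are used as a score: read counts of genes, normalized across libraries by the authors and deposited as whole numbers, so count models were not used. Per the submitters' processing notes the tools were FastQC, Trimmomatic 0.39, STAR 2.6.1d, featureCounts 1.6.5 (Subread) and DESeq2 1.26.0, on build rn6. Strand, duplicate and gene filter settings were not given in the sources used here. Regular steps in the values gave scaling factors of 1.0256, 1.0567, 0.9246 and 0.9627 (Mock 1, Mock 2, Pdk3 1, Pdk3 2), used to return to approximate reads for counting noise, which covers counting error only.

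Groups and replicate numbers follow the library titles. The test was limma 3.58.1 (R 4.3.3) on log2(value + 1), a scale that understates changes of low genes, with trended variance, 2 residual and 5.56 prior degrees of freedom, two-sided, Benjamini-Hochberg over 12838 genes, threshold 0.05. It was also run on simulated data with counting noise alone. The pairs here varied at 0.553 and 0.547 of the counting variance, so that run does not show its performance here. SDs are over n = 2.

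The members and lists were chosen with earlier results of these data known. All members may be named. From each pathway list the text may name those past the threshold, at most 4 in each direction by p, or the highest when none passed. Other names (Psmb5, Psmb6, and Socs3 and Cgas in a plot) were chosen for what they encode or after their values were seen. Alternatives were the replicate block, leaving out each library, TMM and ribosomal scaling, other filters and pseudocounts, no variance trend, the floor at counting noise and a false discovery rate of 0.01.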

Additional observations from a re-analysis of the deposited data

How the results depend on the processing

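With 1 library left out, limma called 0 genes in every class in either direction, which leaves 1 residual degree of freedom and assumes that the lone library varies like the other group. At an unadjusted p under 0.05 there were then 1554 to 1645 genes higher and 1349 to 1727 lower, with 2 to 5 members higher and 2 to 6 lower. The median log2 fold change ran from -0.103 to -0.016 for antiviral and from -0.167 to -0.0144 for antigen processing genes (-0.0404 without Pdk3 1).

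Scaled to ribosomal protein genes, 937 genes were higher and 3594 lower, 12 members were lower (11 antiviral, 1 antigen processing), and the medians were -0.143 and -0.204. Without a filter 737 genes were higher and 539 lower, and 0 members were higher (2 unadjusted). With a minimum of 50, 0 members were higher (1 unadjusted), because Psmb9 and Bst2 left the test, and 5 were lower, all antiviral. Without an intensity trend 526 genes were higher and 325 lower, and 1 member was lower, an antiviral gene. The floor at counting noise gave 955 genes lower, 1 member higher and 0 antiviral members higher. At a false discovery rate of 0.01, 766 genes were higher and 576 lower, and 0 members were higher (3 unadjusted). TMM scaling made 2 antiviral members higher, Bst2 and Eif2ak2. The cause was not tested.

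The replicate block left 1 member higher and 0 antiviral members higher, as Bst2 had an adjusted p of 0.0522. It changed no other member's call. Libraries with the same number share only that number: across all genes with a mean of at least 50 the gaps of the pairs correlated with r = 0.0036, and across the members with r = 0.18, a description across genes, which are not independent replicates. Over the alternatives in which each was tested, log2 fold changes ran from 0.58 to 0.78 for Psmb9, 0.55 to 0.78 for Bst2, -0.37 to -0.27 for Trim25 and -0.32 to -0.21 for Parp14. Uncalled members whose sign turned numbered 9 and 2 without Mock 1 and Mock 2, 7 and 3 without Pdk3 1 and Pdk3 2, 3 with TMM and 5 with ribosomal scaling.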
